A study of Homo sapiens with 6 samples.

Results

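The immunoglobulin-family adhesion genes VCAM1, ICAM1, ICAM2, ICAM3, ALCAM, MCAM, L1CAM, NCAM1, CRTAM and CADM1, were followed in MDA-MB-231 cells, a human breast carcinoma line. They were taken as every probe set that the platform annotation gives to exactly 1 of these symbols, which yielded 28 probe sets of 54613 and 10 genes of 19775. Another 4 probe sets name MCAM together with the microRNA gene MIR6756 and were left out. The group was assembled around VCAM1, with earlier results of the same comparison known, so the values of the 10 genes are a description. The HS3ST2-labelled group was 3 arrays of cells given a plasmid that expresses HS3ST2, a sulfotransferase that modifies heparan sulfate chains. The control group was 3 arrays of cells given a control vector. Nothing in the labels says whether the cells were a pool or a clone, how long after transfection they were harvested, or whether each replicate was its own transfection. Spread among these arrays, which may be technical, is thus all that the p-values measure.

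Adhesion molecules of this family carry extracellular immunoglobulin-like domains and, in most members, a membrane-spanning segment with a short cytoplasmic tail. They hold cells together by binding a copy of themselves, another family member, or an integrin on the opposing cell. VCAM1 and the ICAMs are integrin ligands best known from inflamed endothelium, where cytokines acting through NF-kB induce VCAM1 and ICAM1. The other genes were first studied in nerve, epithelium, melanoma or lymphocytes, and several of them also occur on carcinoma cells.

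The deposited values had been centred on the median of the 6 arrays for each probe set. A value of 0 is thus the middle of the 6 arrays and not an absence of RNA, levels of different genes cannot be compared, and it cannot be said which genes lie near background. The presence of the cell line's own markers could not be checked for the same reason. The probe set for HS3ST2 gave 0.16, 0.04 and -0.04 in the HS3ST2-labelled arrays, against -0.22, 0.17 and -0.11 in control arrays. These groups overlapped (difference 0.11 ± 0.10 log2, SE, n = 3 per group, adjusted p = 0.523 by limma), so the arrays are named by their labels. Whether this probe set matches the RNA made from the plasmid was not tested. The median absolute difference between arrays was 0.1 to 0.122 log2 within groups and 0.16 to 0.193 between them. Ribosomal RNA control probe sets, by their median, stood at 0.02, 0.16 and 0.74 in the HS3ST2-labelled arrays and at -0.20, -0.06 and -0.29 in control arrays and did not overlap (two-sided p = 0.1 by exact permutation, which cannot go lower with 3 arrays per group). The counts of genes and probe sets called at the adjusted threshold are therefore also given without HS3ST2 replicate 3, the array with the most ribosomal RNA signal. The difference between the 3′ and 5′ control probe sets, a measure of RNA integrity, overlapped between the groups for both GAPDH and ACTB (exact permutation p = 0.3 and 0.2, two-sided).

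Compared with control, 7 of the 10 genes were called lower in the HS3ST2-labelled group and none was called higher. The 7 were CRTAM, VCAM1, L1CAM, ICAM1, ICAM2, MCAM and ALCAM, and in each the 2 groups of arrays did not overlap. ICAM3, CADM1 and NCAM1 did not pass. A gene was called when its adjusted p was under 0.05 in limma, fitted to all 19775 genes and adjusted by Benjamini-Hochberg. Over all genes 13% were called lower and 11.5% higher, and the groups did not overlap for 40.4%, among them 20.9% with the HS3ST2-labelled arrays lower. As the genes were chosen with this comparison known, nothing is read from the 7. At an unadjusted p under 0.05 limma gave 7 lower and 0 higher. Without HS3ST2 replicate 3 the count called at the adjusted threshold was again 7 lower. In that setting 2026 of all 19775 genes were called lower and 1779 higher. In RNA from whole cultures, fewer cells that express a gene and less RNA per cell cannot be told apart. The median difference of the 10 genes was -0.47 log2, beside 0.01 over all genes. Among the 28 probe sets 11 were called lower and 0 higher, where 8.98% of all probe sets were called lower and 7.9% higher. Without HS3ST2 replicate 3, 9 of the 28 were called lower, where 3431 of all 54613 probe sets were called lower and 3036 higher. At an unadjusted p under 0.05 limma gave 13 lower and 0 higher among the 28. The share of all genes or probe sets at that unadjusted threshold is not given here, so counts at it lack a baseline.

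**Figure D1:**
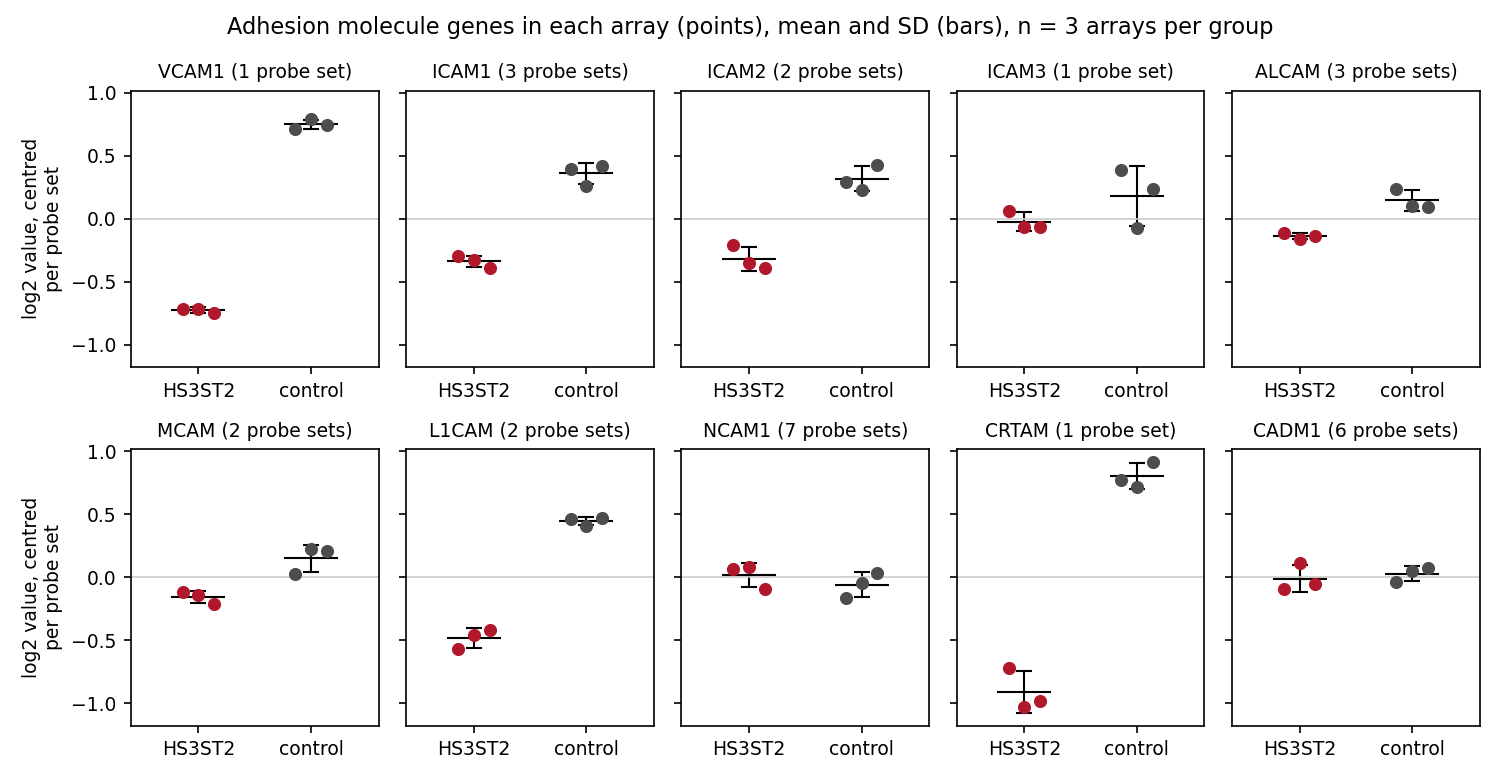
Each panel plots 1 gene, with the log2 value centred per probe set on the vertical axis and the 3 HS3ST2-labelled arrays (red) left of the 3 control arrays (grey); bars are mean and SD. VCAM1, CRTAM and L1CAM show wide gaps between the groups, ALCAM and MCAM narrow ones, and ICAM3, NCAM1 and CADM1 overlap. The L1CAM panel averages 204584_at (difference -1.85) and 204585_s_at (-0.01), and in the latter the groups overlapped.

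VCAM1, the ligand of the leukocyte integrin formed by ITGA4 and ITGB1, had 1 probe set (203868_s_at). It stood at -0.71, -0.71 and -0.75 in the HS3ST2-labelled arrays, against 0.71, 0.79 and 0.75 in control arrays. Within each group the arrays lay almost on top of each other, and the gap between the groups was far wider than either spread. HS3ST2 minus control came to -1.47 ± 0.05 log2 (SE from limma, n = 3 per group), which puts the HS3ST2-labelled arrays at 36.0% of control on the linear scale. VCAM1 was the 18th most lowered of 19775 genes. Leaving out any 1 array gave -1.49 to -1.46.

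ICAM1, the ligand of the integrins that contain ITGB2, was lower in all 3 of its probe sets, at -0.62 (202637_s_at), -0.77 (202638_s_at) and -0.71 (215485_s_at). Averaged over them it stood at -0.30, -0.33 and -0.39 in the HS3ST2-labelled arrays, against 0.40, 0.26 and 0.42 in control arrays. This is a difference of -0.70 ± 0.06 log2, or 61.6% of control. Its 3 probe sets were close to each other. The 95% interval was -0.84 to -0.56 for ICAM1 and -1.59 to -1.36 for VCAM1, and these genes were not tested against each other. All probe sets of VCAM1 and ICAM1 end in _s_at, the platform's mark for probes that match more than 1 transcript, so neither gene has a value from a probe set without that mark.

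Since NF-kB is a textbook inducer of both genes, the 250 bases upstream of each start are shown, from RefSeq on GRCh38.p14 and on the plus strand, with matches to the NF-kB motif GGNNTTNCC on either strand in capitals.
VCAM1, chr1:100719492-100719741: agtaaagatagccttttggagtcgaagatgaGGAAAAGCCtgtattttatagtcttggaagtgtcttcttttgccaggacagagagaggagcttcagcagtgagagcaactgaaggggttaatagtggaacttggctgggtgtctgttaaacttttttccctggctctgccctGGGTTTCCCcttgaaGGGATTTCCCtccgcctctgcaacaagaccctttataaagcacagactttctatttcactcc
ICAM1, chr19:10270870-10271119: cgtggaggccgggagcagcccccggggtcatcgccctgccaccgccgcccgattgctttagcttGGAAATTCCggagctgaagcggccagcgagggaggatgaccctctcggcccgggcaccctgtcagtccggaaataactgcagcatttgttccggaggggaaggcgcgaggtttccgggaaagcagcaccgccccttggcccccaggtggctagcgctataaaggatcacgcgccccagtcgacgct

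VCAM1 held 4 matches, of which 2 overlap each other, from -219 to -211, -77 to -69, -62 to -54 and -61 to -53 relative to the start. ICAM1 held 1, from -186 to -178. Of 35116 upstream windows of the same length in the table, 15.0% held at least 1 match, so the letters alone are common. RefSeq windows were at hand for 6 of the 10 genes. L1CAM held 1 match in each of its 2 windows, which overlap and share that match, and ICAM3, ALCAM and MCAM held none. A TATA motif (TATAAA, either strand) was present upstream of VCAM1 and ICAM1 and in 10.7% of all windows, and in none of the windows of the other 4 genes. The GC box GGGCGG, which 42.6% of windows hold, was absent upstream of VCAM1 and had 2 matches for ICAM1, 1 for ALCAM, 5 for MCAM, 2 in each window of L1CAM, and 2 in 1 of the 3 windows of ICAM3. A match describes letters in a window and is not evidence of binding in these cells.

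ICAM2, an integrin ligand of endothelium and platelets, was lower in both probe sets, by -0.48 (204683_at) and -0.79 (213620_s_at). Its averaged values were -0.21, -0.35 and -0.39 in the HS3ST2-labelled arrays and 0.29, 0.23 and 0.43 in control arrays. The groups did not overlap, and the difference was -0.63 ± 0.07 log2, or 64.4% of control. ICAM3, the ICAM of resting leukocytes, stood at 0.06, -0.06 and -0.07 in the HS3ST2-labelled arrays, against 0.38, -0.08 and 0.23 in control arrays. Control replicate 2 lay at the level of the HS3ST2-labelled arrays, and the difference of -0.20 ± 0.11 (95% interval -0.46 to 0.05) did not pass. Without control replicate 2 ICAM3 was at -0.33 and was called lower, and without control replicate 1 it was at -0.10 and was not called.

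ALCAM, which binds itself and the lymphocyte receptor CD6, showed a small difference. Its averaged values were -0.11, -0.16 and -0.14 in the HS3ST2-labelled arrays, against 0.24, 0.10 and 0.10 in control arrays, a difference of -0.28 ± 0.06 log2 or 82.2% of control. All 3 of its probe sets had groups that did not overlap. The same held for 34.1% of all probe sets, among them 17.4% with the HS3ST2-labelled arrays lower. Only 1569362_at (-0.49) was called, while 201951_at (-0.16) and 201952_at (-0.19) did not pass. The call of 1569362_at was itself lost without HS3ST2 replicate 2 (-0.46), HS3ST2 replicate 3 (-0.45), control replicate 1 (-0.37) or control replicate 3 (-0.53). The gene average was called without any 1 array, at -0.31 to -0.24.

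MCAM, a melanoma and endothelial adhesion molecule, stood at -0.11, -0.14 and -0.21 in the HS3ST2-labelled arrays and at 0.03, 0.22 and 0.21 in control arrays. The difference was -0.31 ± 0.07 log2, or 80.9% of control. It came from 209087_x_at (-0.51), since 1568191_at gave -0.11 with overlapping groups and no call. The ending _x_at marks probes that can also bind other transcripts. Without probe sets of that kind MCAM was at -0.11 and was not called. The 4 probe sets that name MIR6756 beside MCAM gave -0.49 (209086_x_at), -0.69 (210869_s_at), -0.40 (211340_s_at) and 0.04 (211042_x_at), the first 3 called lower. With all of them averaged in, MCAM was at -0.36 and was called lower.

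L1CAM, a neuronal adhesion molecule that binds itself and integrins and occurs in invasive carcinomas, gave different answers from its 2 probe sets. Probe set 204584_at stood at -1.09, -0.88 and -0.93 in the HS3ST2-labelled arrays, against 0.88, 0.88 and 0.90 in control arrays. This is a difference of -1.85 ± 0.07 log2 (95% interval -2.02 to -1.68), the largest of the 28 probe sets in size. The other probe set, 204585_s_at, stood at -0.06, -0.04 and 0.10 in the HS3ST2-labelled arrays, against 0.05, -0.07 and 0.04 in control arrays. Here the groups overlapped, and the difference was -0.01 ± 0.07 (95% interval -0.18 to 0.16). The gene average of -0.93 ± 0.06 lies between them and describes neither. Which part of the transcript each probe set covers, and whether 204585_s_at is above background, was not tested.

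NCAM1, the neural adhesion molecule that carries polysialic acid, did not pass in any of its 7 probe sets. The gene average was 0.07, 0.08 and -0.09 in the HS3ST2-labelled arrays and -0.17, -0.04 and 0.03 in control arrays. The difference of 0.08 ± 0.07 log2 had a 95% interval from -0.10 to 0.25. Single probe sets ranged from -0.07 (231532_at) to 0.37 (217359_s_at), and in 217359_s_at control replicate 1 stood at -0.84 beside 0.16 and -0.08 in the other control arrays. Without that array 217359_s_at gave 0.07.

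CRTAM, a receptor of activated T and NK lymphocytes, had the largest change of the 10 genes when probe sets were averaged. Its probe set 206914_at stood at -0.72, -1.03 and -0.98 in the HS3ST2-labelled arrays, against 0.77, 0.72 and 0.92 in control arrays. The difference was -1.71 ± 0.09 log2, or 30.5% of control, and CRTAM was the 8th most lowered of 19775 genes. CADM1, the nectin-like molecule that CRTAM binds, stood at -0.09, 0.11 and -0.05 in the HS3ST2-labelled arrays, against -0.04, 0.05 and 0.07 in control arrays. The groups overlapped, and the difference of -0.04 ± 0.07 (95% interval -0.20 to 0.12) did not pass. Of its 6 probe sets, 232767_at was called lower (-0.31), a call lost without any 1 array other than control replicate 1 and with the replicate numbers as a block. The other 5 ranged from -0.11 to 0.25 and did not pass.

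**Figure D2:**
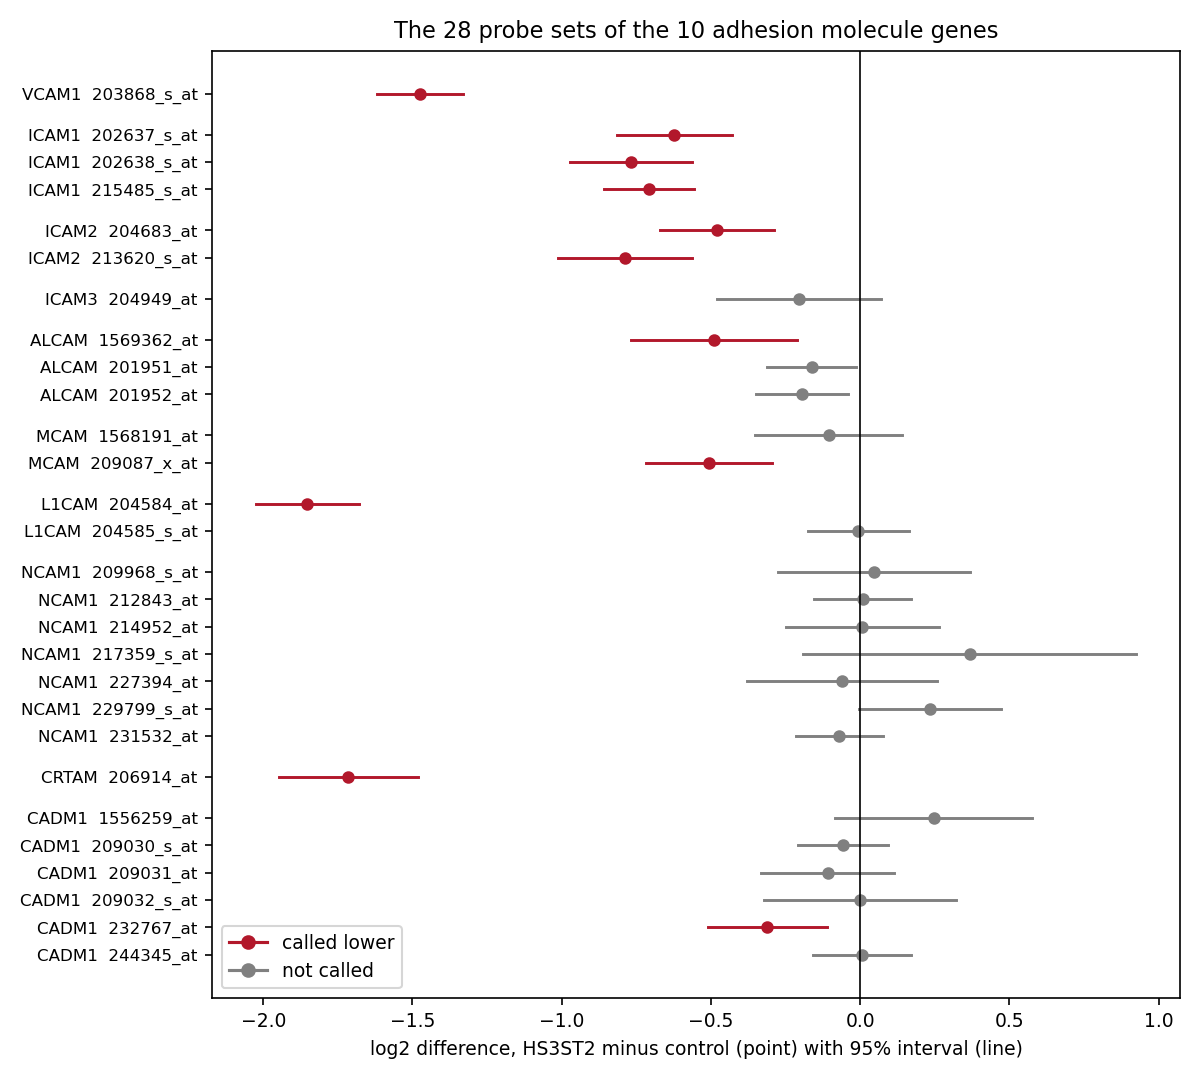
Rows are the 28 probe sets grouped by gene, and the horizontal axis is the log2 difference, HS3ST2 minus control, with its 95% interval from limma over all probe sets. Red marks the 11 called lower; the L1CAM probe sets lie at -1.85 and -0.01, while the 3 ICAM1 probe sets lie together.

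Ordered by their differences the genes ran CRTAM, VCAM1, L1CAM, ICAM1, ICAM2, MCAM, ALCAM, ICAM3, CADM1 and NCAM1. Neighbours in this order have overlapping 95% intervals, except VCAM1 and L1CAM (-1.59 to -1.36 and -1.06 to -0.79) and ICAM2 and MCAM, whose intervals meet at -0.46. No difference between genes was fitted, so the intervals do not test the order. CRTAM ran from -1.93 to -1.50, ICAM2 from -0.80 to -0.46, MCAM from -0.46 to -0.15 and ALCAM from -0.42 to -0.15. VCAM1 (1 probe set) and CRTAM (1) rest on a single probe set each, and so does ICAM3. The place and interval of L1CAM are those of its gene average, which describes neither 204584_at (-1.85) nor 204585_s_at (-0.01). Its distance from VCAM1 in this order is therefore not that of either probe set. MCAM likewise averages 209087_x_at (-0.51), which was called, and 1568191_at (-0.11), which was not.

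Markers of cells in which several of these genes are best known gave the following values. For comparison, 11.5% of all genes were called higher and 13% lower. Of 10 T and NK cell markers, GNLY was higher (0.74 ± 0.06 log2) and none was lower, also at an unadjusted p under 0.05, where limma gave 1 higher and 0 lower. The list's mean ranged from 0.03 to 0.08 over the HS3ST2-labelled arrays and from -0.13 to -0.01 over control arrays. Of 10 endothelial markers, VWF (0.27 ± 0.08) was higher and KDR and CLDN5 (-0.30 ± 0.08) were lower, and the list's mean ranged from -0.11 to 0.03 over the HS3ST2-labelled arrays and from -0.03 to 0.07 over control arrays. None of 9 B cell and myeloid markers was called, and at an unadjusted p under 0.05 limma gave 1 higher and 0 lower. That list's mean ranged from 0.03 to 0.04 over the HS3ST2-labelled arrays and from -0.04 to 0.00 over control arrays. Of 10 markers of breast carcinoma lines, KRT18 was higher (0.26 ± 0.06) and CD44 (-0.59 ± 0.05) and VIM (-0.20 ± 0.06) were lower. The limma counts at an unadjusted p under 0.05 were 2 higher and 3 lower for this list. For the endothelial list they were 1 higher and 2 lower, and counts at this threshold have no baseline over all genes. Whether any marker is at 0 cannot be read from centred values, and the part of such cells in the results was not tested.

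For other adhesion molecules of the immunoglobulin family the share called was near that over all genes, of which 11.5% were called higher and 13% lower. Among the 37 that were measured, 5 rose and 5 fell, 27 were not called, and the median was -0.01 log2. NECTIN3, a nectin of epithelial junctions, rose by 0.47 ± 0.05 (adjusted p = 6.03e-04 by limma), although only 1 of its 2 probe sets was called. PVR, the poliovirus receptor and a nectin-like molecule, fell by 0.47 ± 0.07 (adjusted p = 0.00149) and was lower in 6 of 7 probe sets. NRCAM, a relative of L1CAM, fell by 0.48 ± 0.07 (adjusted p = 0.00143), and CLMP, a junctional molecule, fell by 0.44 ± 0.06 (adjusted p = 0.00163). The others, named after their values were seen, were CXADR (-0.49) and CD47 (-0.25) among the falls and CEACAM1 (0.32), ROBO3 (0.36), CNTN1 (0.24) and ROBO1 (0.24) among the rises. Without HS3ST2 replicate 2 or control replicate 1, 3 rose. Over all 19775 genes the number called higher was 1752 and 1899 in those settings, beside 2274 with all arrays. With no adjustment, limma gave 5 higher and 7 lower in the list at p under 0.05, with no baseline over all genes.

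Among genes for receptors that bind the 10 molecules, some integrin chains were called higher, while ITGA4 (-0.04 ± 0.07) and ITGB1 (-0.04 ± 0.06), the chains of the VCAM1 receptor, did not pass. Nor did ITGAL, ITGAM, ITGAX, ITGB3, ITGA5 and ITGA9, which lay between -0.06 and 0.15. The 23 genes held 5 that rose, 2 that fell and 16 that did not pass, with a median of 0.05 log2. Over all genes 11.5% were called higher and 13% lower. ITGB2, the shared chain of the leukocyte integrins that bind the ICAMs, rose by 1.11 ± 0.05 (adjusted p = 9.07e-06 by limma), in all 3 of its probe sets. It stood at 0.58, 0.57 and 0.53 in the HS3ST2-labelled arrays, against -0.55, -0.54 and -0.56 in control arrays. ITGAV, an integrin chain that binds L1CAM, rose by 0.37 ± 0.05 (adjusted p = 0.00139). ITGB7 (0.70 ± 0.12) and ITGAD (0.49 ± 0.08), chains of integrins that bind VCAM1 or ICAM3, and NRP1 (0.31 ± 0.05) also rose and are named after their values were seen. KDR, a vascular growth factor receptor for which MCAM is a co-receptor, fell by 0.82 ± 0.12 (adjusted p = 0.00232), and the tetraspanin CD151 fell by 0.36 ± 0.05 (adjusted p = 0.00144). With no adjustment, limma gave 7 higher and 3 lower in the list at p under 0.05, with no baseline over all genes.

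Among cytoplasmic linkers and proteases that act on these molecules, 6 of 25 genes rose and 2 fell, 17 were not called, with a median of -0.03 log2. Over all genes 11.5% were called higher and 13% lower. TIMP3, an inhibitor of the metalloproteases that shed several of them, rose by 1.02 ± 0.06 (adjusted p = 2.94e-05 by limma), in all 4 of its probe sets. ADAM10, a sheddase of L1CAM, rose by 0.26 ± 0.06 (adjusted p = 0.0122), with 1 of 3 probe sets called, and the protease BACE1 rose by 0.32 ± 0.05 (adjusted p = 0.00254), with 2 of 4 called. EZR, which encodes ezrin and ties ICAM tails to actin, fell by 0.42 ± 0.05 (adjusted p = 0.00104), in 4 of 5 probe sets, all 4 ending in _s_at. Its remaining probe set gave -0.22 and no call. MSN, the related moesin, was the other that fell (-0.18 ± 0.05) and is named after its value was seen. The number that fell was 1 when any 1 array other than HS3ST2 replicate 3 was left out. Over all 19775 genes the number called lower was 2025 to 2162 in those settings, beside 2571 with all arrays. With no adjustment, limma gave 7 higher and 4 lower in the list at p under 0.05, with no baseline over all genes.

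Genes of NCAM1 and L1CAM signalling and polysialylation gave a single call. Of 18 genes, 1 fell, 0 rose and 17 did not pass, with a median of 0.04 log2. Over all genes 13% were called lower and 11.5% higher. At an unadjusted p under 0.05 limma gave 1 higher and 3 lower in the list. EGFR, a receptor that L1CAM can engage, fell by 0.22 ± 0.05 (adjusted p = 0.0117 by limma), with 2 of 9 probe sets called, both ending in _s_at. On its other probe sets, with neither _x_at nor _s_at at the end, EGFR was at -0.07 and was not called. Without control replicate 3, 1 gene of the list rose. Over all 19775 genes the number called higher was 1815 in that setting, beside 2274 with all arrays.

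Inducers and transcription factors of VCAM1 and ICAM1 were called in both directions, with IL1A, IL1B and TNFRSF1B among the lower. Of 31 genes, 10 fell and 3 rose, 18 were not called, with a median of -0.11 log2. Over all genes 13% were called lower and 11.5% higher. TNFRSF1B, a receptor for tumour necrosis factor, fell by 1.21 ± 0.09 (adjusted p = 6.8e-05 by limma). It stood at -0.49, -0.67 and -0.52 in the HS3ST2-labelled arrays, against 0.77, 0.49 and 0.70 in control arrays. The cytokine IL1B fell by 0.63 ± 0.06 (adjusted p = 1.72e-04), in both probe sets. IL1A fell by 0.58 ± 0.06 (adjusted p = 5.04e-04), with -0.82 in one probe set and -0.34 and no call in the other. KLF4, a zinc finger factor, rose by 0.38 ± 0.06 (adjusted p = 0.00178). The factors IRF1 (0.31 ± 0.05) and REL (-0.35 ± 0.06), an NF-kB subunit, and the receptor TNFRSF1A (0.26 ± 0.06) were called too and are named after their values were seen. The remaining falls, named in the same way, were HMGA1 (-0.36), IL4R (-0.25), ETS1 (-0.23), KLF6 (-0.20), CEBPB (-0.20) and IFNGR2 (-0.19). The other NF-kB subunits NFKB1 (-0.24), NFKB2 (-0.16), RELB (-0.11) and RELA (-0.04), and the inhibitor NFKBIA (-0.09), did not pass. The number that fell was 6 without HS3ST2 replicate 1, 5 without control replicate 3, and 6 with the replicate numbers as a block. Over all 19775 genes the number called lower was 2089, 2162 and 2312 in those settings, beside 2571 with all arrays and no block. With no adjustment, limma gave 4 higher and 14 lower in the list at p under 0.05, with no baseline over all genes.

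**Figure D3:**
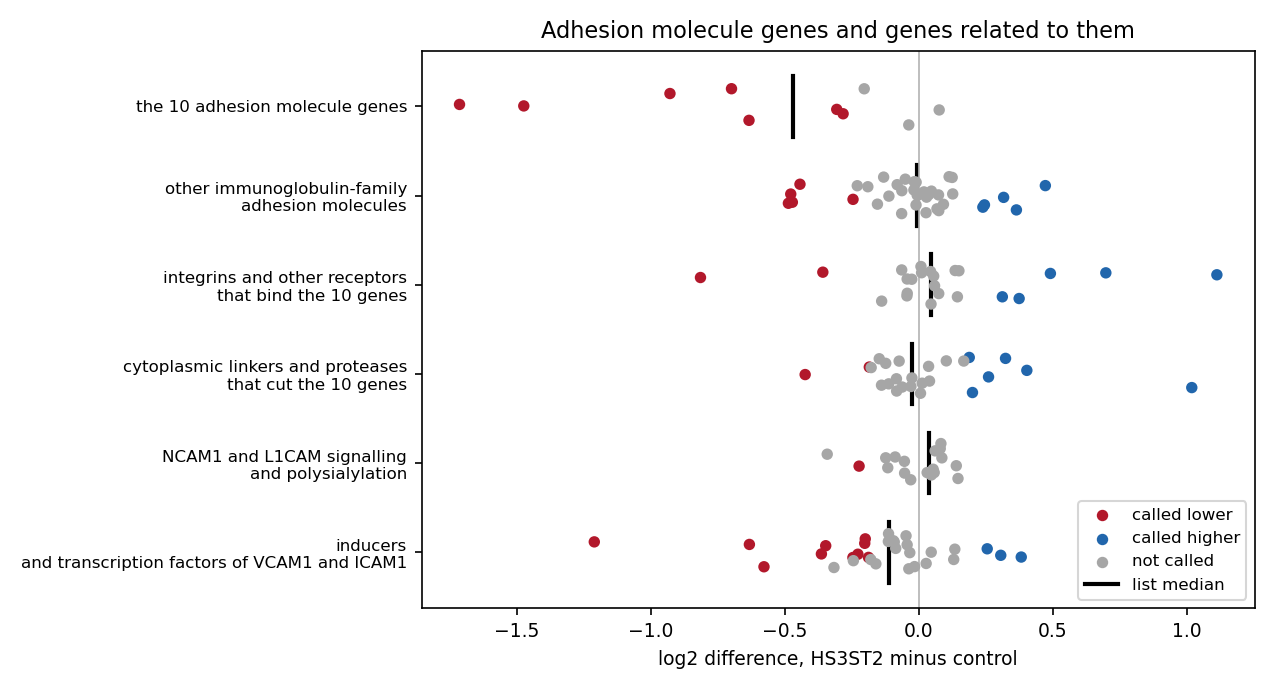
Each row holds the 10 adhesion genes or a list of related genes, and each point is 1 gene's log2 difference, HS3ST2 minus control; red is called lower, blue called higher, grey not called, and the black bar is the median. The medians are -0.47 for the 10 genes and -0.11 to 0.05 for the 5 lists. As the 10 genes were chosen with this comparison known, nothing is read from the gap.

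Genes next to these 10 on their chromosomes were also examined. Taking up to 2 measured genes on each side in RefSeq order, 40 neighbours were found, of which 3 rose, 3 fell and 34 did not pass, with a median of 0.00 log2. Over all genes 24.5% were called in either direction. The 4 neighbours of VCAM1, RTCA, CDC14A, EXTL2 and SLC30A7, lay between 0.00 and 0.07, so the fall of VCAM1 was not seen in the genes beside it. ICAM1, ICAM4, ICAM5 and ICAM3 lie close together on chromosome 19. ICAM4 (-0.23 ± 0.08, adjusted p = 0.0699 by limma) and ICAM5 (-0.19 ± 0.11, adjusted p = 0.257) did not pass, nor did MRPL4 (-0.17) or S1PR2 (0.03) on the other side of ICAM1. Near ICAM3 all 4 neighbours had values from -0.17 to -0.12 and none passed.

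CLMP, which lies 2 places from CRTAM on chromosome 11 and is itself an adhesion molecule of the family, was the called neighbour of CRTAM. Between them JHY gave 0.08 and did not pass. SSR4, a gene of the translocon, rose by 0.47 ± 0.06 (adjusted p = 0.00124) near L1CAM on chromosome X, a direction opposite to that of L1CAM. ERN1, a sensor of unfolded proteins, fell by 0.29 ± 0.06 (adjusted p = 0.0128) beside ICAM2. Near ALCAM, RDUR fell by 0.73 ± 0.05 (adjusted p = 8.11e-05) and ZPLD1 rose by 0.67 ± 0.12 (adjusted p = 0.00395), and DRC12 rose by 0.78 ± 0.16 (adjusted p = 0.00854) near MCAM, all by limma.

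**Figure D4:**
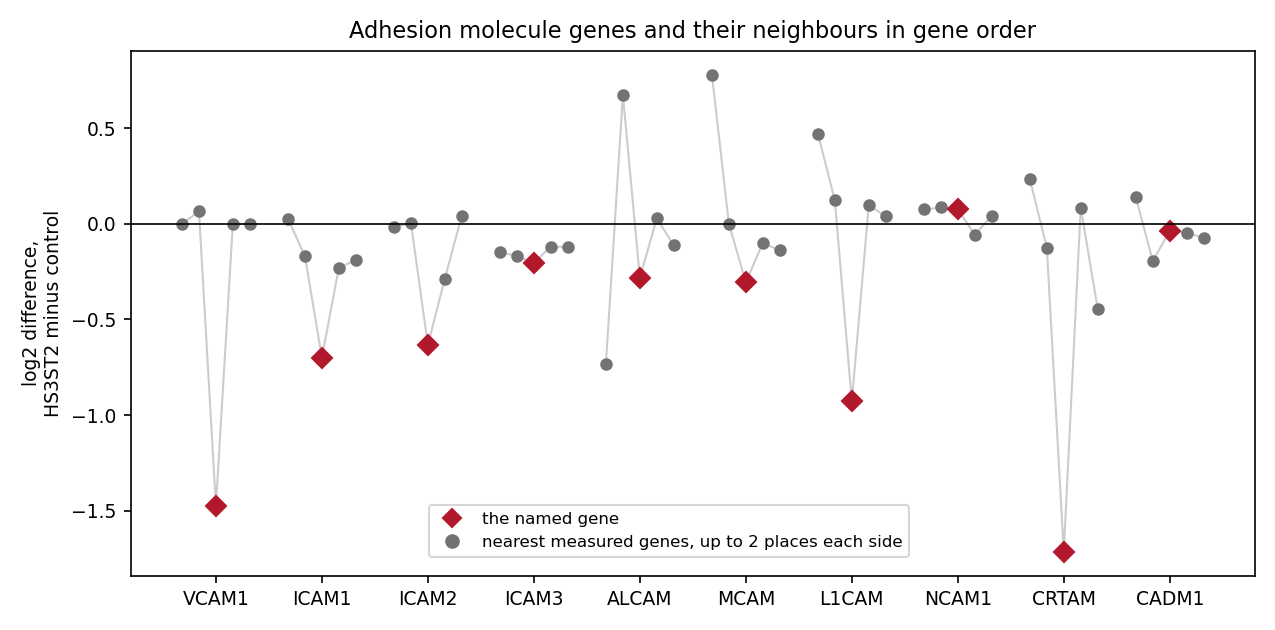
The vertical axis is the log2 difference, HS3ST2 minus control; for each of the 10 genes (red diamonds) grey points are the 2 nearest measured genes on each side, in gene order and not to scale. VCAM1 at -1.47 stands alone among neighbours between 0.00 and 0.07.

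The genes whose 6 values lay nearest to those of VCAM1, by Euclidean distance over the 6 arrays among 19775 genes, were SLC43A3 (distance 0.086), EVI2B (0.160), CENPW (0.205), CDC20 (0.215) and KIF20A (0.223). SLC43A3 differed by -1.47 ± 0.05 log2 and EVI2B by -1.39 ± 0.05. For CRTAM they were DEPDC7 (0.281), HKDC1 (0.325), CXCL5 (0.356), IL24 (0.375) and KRABD1 (0.393). With 6 arrays in 2 groups the distance mostly reflects a shared size of difference.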

How the data were processed

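Total RNA of 6 samples was measured on 1-colour Affymetrix arrays. The deposited log2 values came from RMA, per the submitters' processing notes, and the median of the 6 arrays was 0 within 1e-05 for all 54675 probe sets, so they had been centred per probe set by a step not given in the sources used here. Base 2 is that of RMA and is not stated. After 62 control probe sets were set aside, 54613 were tested. Of these 41091 had 1 gene symbol, 1801 several and 11721 none. Values were averaged over each gene's probe sets (19775 genes).

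HS3ST2 minus control was fitted with limma 3.58.1 (R 4.3.3; lmFit, eBayes, no covariate), with Benjamini-Hochberg adjustment over all genes or all probe sets, and called at an adjusted p under 0.05. Errors are moderated SEs, n = 3 per group. Arrays give no counts, and their number limits the precision. The fit was tested on simulated data.

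The members, lists and rules were chosen with earlier results of these data known. Named are the 10 members, HS3ST2, up to 4 called genes of each list by smallest p, called neighbours, and the 5 genes nearest to VCAM1 and CRTAM. RefSeq promoters and gene order are of GRCh38.p14. Alternatives tried were the replicate number as a block, every array left out in turn, quantile normalization, median centring, array weights, robust eBayes, other thresholds, leaving out _x_at and _s_at probe sets, the probe set of largest SD and, chosen after seeing the data, MCAM with its 4 shared probe sets.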

Additional observations from a re-analysis of the deposited data

How the results depend on the processing

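The count of 10 genes called lower was 7, and 7 or 8 over left-out arrays, 8 being without control replicate 2, where ICAM3 passed, and 6 at an adjusted p under 0.01, where MCAM was lost. Without _x_at and _s_at probe sets 4 of the 8 genes still measured and 4 of 16 probe sets were called lower. VCAM1 and ICAM1 then have no probe set, 213620_s_at of ICAM2 and 209087_x_at of MCAM are removed, and MCAM and 232767_at of CADM1 lost their calls. Over all features the same setting gave 1661 genes lower of 17098, and 2591 probe sets higher and 2572 lower of 39114. The cause was not tested. At an adjusted p under 0.01 there were 1285 genes higher and 1555 lower, and 2208 probe sets higher and 2435 lower. Same-numbered arrays did not deviate together (correlations 0.119, 0.0466 and -0.0803), and not every array correlated best with its own number. With the replicate block the 10 genes gave 7 lower, the 28 probe sets 10 lower, and all genes 1990 higher and 2312 lower. No called member changed direction under any alternative run. Quantile normalization took VCAM1 to -1.56, CRTAM to -1.87 and L1CAM to -1.05, and the probe set of largest SD gave -1.85 for L1CAM, -0.51 for MCAM, -0.49 for ALCAM, -0.79 for ICAM2, 0.37 for NCAM1 and 0.25 for CADM1. NCAM1, not called, was at -0.03 without _x_at and _s_at probe sets, also for a cause not tested. Without those probe sets IL1A (-0.34), EZR (-0.22), EGFR (-0.07) and CXCL5 (-0.31) were not called. Centring removed signal levels, so how far any probe set lies above background is unknown.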
